A study of Mus musculus with 8 samples.

Results

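The genes described here encode the matrix of the vitreous and of the ciliary zonule, and the set holds 9 genes, Optc, Fbln1, Ltbp2, Col2a1, Col9a1, Col9a2, Col9a3, Col11a1 and Col18a1. Optc, Fbln1 and Ltbp2 were chosen by their measured counts, which had been noted to jump between replicates of a group, and the other 6 were added by function, to ask whether they follow. The deposited table lists 57010 mouse Ensembl gene identifiers, and each of the 9 symbols matched 1 of them. Poly(A) RNA was sequenced from 8 whole retinas, 1 retina to a library, with 2 libraries each from wild-type (WT) mice at postnatal day 15 (P15) and from rd10 mice of the same day, P18 or P21. The rd10 strain is homozygous for a missense mutation of Pde6b, a subunit of the rod phosphodiesterase, and loses its rods from about these ages. The methods name WT littermates as the controls of rd10 mice and list bought WT mice as C57BL/6J, and the labels give no strain. No WT library at P18 or P21 was analysed here, so that age and genotype cannot be told apart in the comparisons of these ages with WT P15.

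Total counts lay between 28076947 and 33724562 per library, and values are given as CPM, the counts scaled to a common library total, after TMM scaling, with factors between 0.937 and 1.06. All 10 genes of a rod list were expressed, with a summed level between 21500 and 55800 CPM, and Pde6b itself lay between 964 and 2330 CPM. The replicates are given as biological, with nothing on whether the retinas of a group share a litter, and p-values measure only the spread between these libraries. The counts of 4 Y-linked genes summed to values between 5530 and 7193 counts in both rd10 P15 libraries, rd10 P18 replicate 1 and rd10 P21 replicate 1, and between 3 and 19 in the other 4 libraries.

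The vitreous is a gel of thin fibrils built from type II collagen (Col2a1), with type IX (Col9a1, Col9a2 and Col9a3) and type XI (Col11a1) collagen on and in them. Opticin, the product of Optc, is a small leucine-rich proteoglycan that coats these fibrils and is made by the non-pigmented epithelium of the ciliary body, at the edge of the retina. Ltbp2 binds fibrillin microfibrils and is needed for the zonule that holds the lens, Fbln1 encodes fibulin-1 of elastic fibers and basement membranes, and Col18a1 encodes a basement membrane collagen that gives rise to endostatin and is mutated in Knobloch syndrome, a disease of the vitreous and retina.

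In GRCm38 with the GENCODE M21 annotation, Optc lies at chr1:133897199-133907999 (minus strand), Fbln1 at chr15:85205949-85286535 (plus), Ltbp2 at chr12:84783212-84876532 (minus), Col2a1 at chr15:97975602-98004695 (minus), Col9a1 at chr1:24177610-24252684 (plus), Col9a2 at chr4:121039385-121055322 (plus), Col9a3 at chr2:180597790-180622189 (plus), Col11a1 at chr3:114030540-114220718 (plus) and Col18a1 at chr10:77052178-77166548 (minus). Counts are sums over each gene, so that exons and transcripts are not told apart. The promoters of the 3 genes that jump and of Col18a1 are shown, since these 4 differed most between replicates. RefSeq windows (GRCm38.p6) run from 250 bases before to 50 bases after a gene's start, and 7 of the 9 genes matched, with 10 windows. Col2a1 and Col9a3 had no match. Each window was searched on both strands for TAATCC, a motif of OTX and CRX factors, GGAATG, a motif of TEAD factors, ACAAAG, a motif of SOX factors, the core promoter motif TATAAA, and the common promoter motifs CCAAT and GGGCGG, the last known as the GC box. Capitals mark the matches, and matches of different motifs may overlap. The second Fbln1 window, which overlaps its first, and both Col18a1 starts are printed, and all 5 sequences read 5′ to 3′ on the strand of the gene.
Optc, chr1:133907950-133908249, minus strand: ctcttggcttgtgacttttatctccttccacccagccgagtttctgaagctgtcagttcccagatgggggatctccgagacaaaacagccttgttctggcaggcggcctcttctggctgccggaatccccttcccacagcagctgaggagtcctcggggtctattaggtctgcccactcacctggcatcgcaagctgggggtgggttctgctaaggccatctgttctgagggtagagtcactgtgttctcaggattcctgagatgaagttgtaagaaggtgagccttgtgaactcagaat
Fbln1, chr15:85205758-85206057, plus strand: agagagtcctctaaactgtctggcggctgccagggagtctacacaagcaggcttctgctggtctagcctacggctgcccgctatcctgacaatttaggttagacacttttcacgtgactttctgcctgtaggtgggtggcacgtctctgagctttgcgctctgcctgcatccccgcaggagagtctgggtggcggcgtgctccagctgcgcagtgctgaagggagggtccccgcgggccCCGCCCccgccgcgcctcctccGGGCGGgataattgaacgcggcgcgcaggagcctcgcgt
Ltbp2, chr12:84876442-84876741, minus strand: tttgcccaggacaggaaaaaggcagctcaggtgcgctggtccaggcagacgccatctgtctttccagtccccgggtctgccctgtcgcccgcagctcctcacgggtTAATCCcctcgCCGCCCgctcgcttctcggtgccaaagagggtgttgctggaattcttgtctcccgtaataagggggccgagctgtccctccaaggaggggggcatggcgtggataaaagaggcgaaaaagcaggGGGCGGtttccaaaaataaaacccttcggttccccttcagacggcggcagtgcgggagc
Col18a1, chr10:77166481-77166780, minus strand: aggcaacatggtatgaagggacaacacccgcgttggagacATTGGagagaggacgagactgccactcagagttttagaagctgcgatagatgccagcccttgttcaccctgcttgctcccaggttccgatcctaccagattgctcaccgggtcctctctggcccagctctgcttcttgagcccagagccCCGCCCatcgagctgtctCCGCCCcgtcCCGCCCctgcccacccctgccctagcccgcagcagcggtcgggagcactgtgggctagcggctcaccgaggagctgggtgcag
Col18a1, chr10:77113656-77113955, minus strand: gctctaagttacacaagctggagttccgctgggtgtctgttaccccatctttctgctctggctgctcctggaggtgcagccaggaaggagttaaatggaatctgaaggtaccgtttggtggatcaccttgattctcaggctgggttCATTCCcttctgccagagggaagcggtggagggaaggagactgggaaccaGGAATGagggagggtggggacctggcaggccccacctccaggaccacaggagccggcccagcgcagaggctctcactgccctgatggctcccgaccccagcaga

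None of the 6 motifs occurred in the Optc window. Ltbp2 held 1 TAATCC and 2 GC boxes, and the second Fbln1 window held 2 GC boxes. The first Col18a1 window held 1 CCAAT and 3 GC boxes, and the second held 2 GGAATG. Of all 32851 windows, 7.06% held TAATCC, 14.7% GGAATG, 18.7% ACAAAG, 13.6% TATAAA, 37.4% CCAAT and 35.7% GGGCGG. No motif was shared by the windows of Optc, Fbln1 and Ltbp2.

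The 3 jump genes shared the same 2 high libraries, rd10 P18 replicate 1 and rd10 P21 replicate 2. Optc (ENSMUSG00000010311) had 3.81 and 6.41 CPM in the WT libraries, 20.7 and 9.09 in those of rd10 mice at P15, 54.5 and 2.90 at P18 and 5.57 and 71.1 at P21, for replicates 1 and 2 in turn. Optc was thus more abundant in rd10 P15 than in either WT library, while the lower library of rd10 P18 had less than both WT libraries. Fbln1 (ENSMUSG00000006369) had 2.92 and 2.27 CPM in the WT libraries, 6.84 and 2.36 in those of rd10 mice at P15, 62.9 and 2.84 at P18 and 5.02 and 92.0 at P21. Outside the 2 high libraries, Fbln1 did not exceed 6.84 CPM. Ltbp2 (ENSMUSG00000002020) was the rarest of the 9 genes in every library but rd10 P21 replicate 2. It had 0.887 and 0.712 CPM in the WT libraries, 2.83 and 0.0705 in those of rd10 mice at P15, 5.28 and 0.252 at P18 and 1.03 and 22.5 at P21. The lowest of these values rests on 2 counts and the highest on 643.

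**Figure D1:**
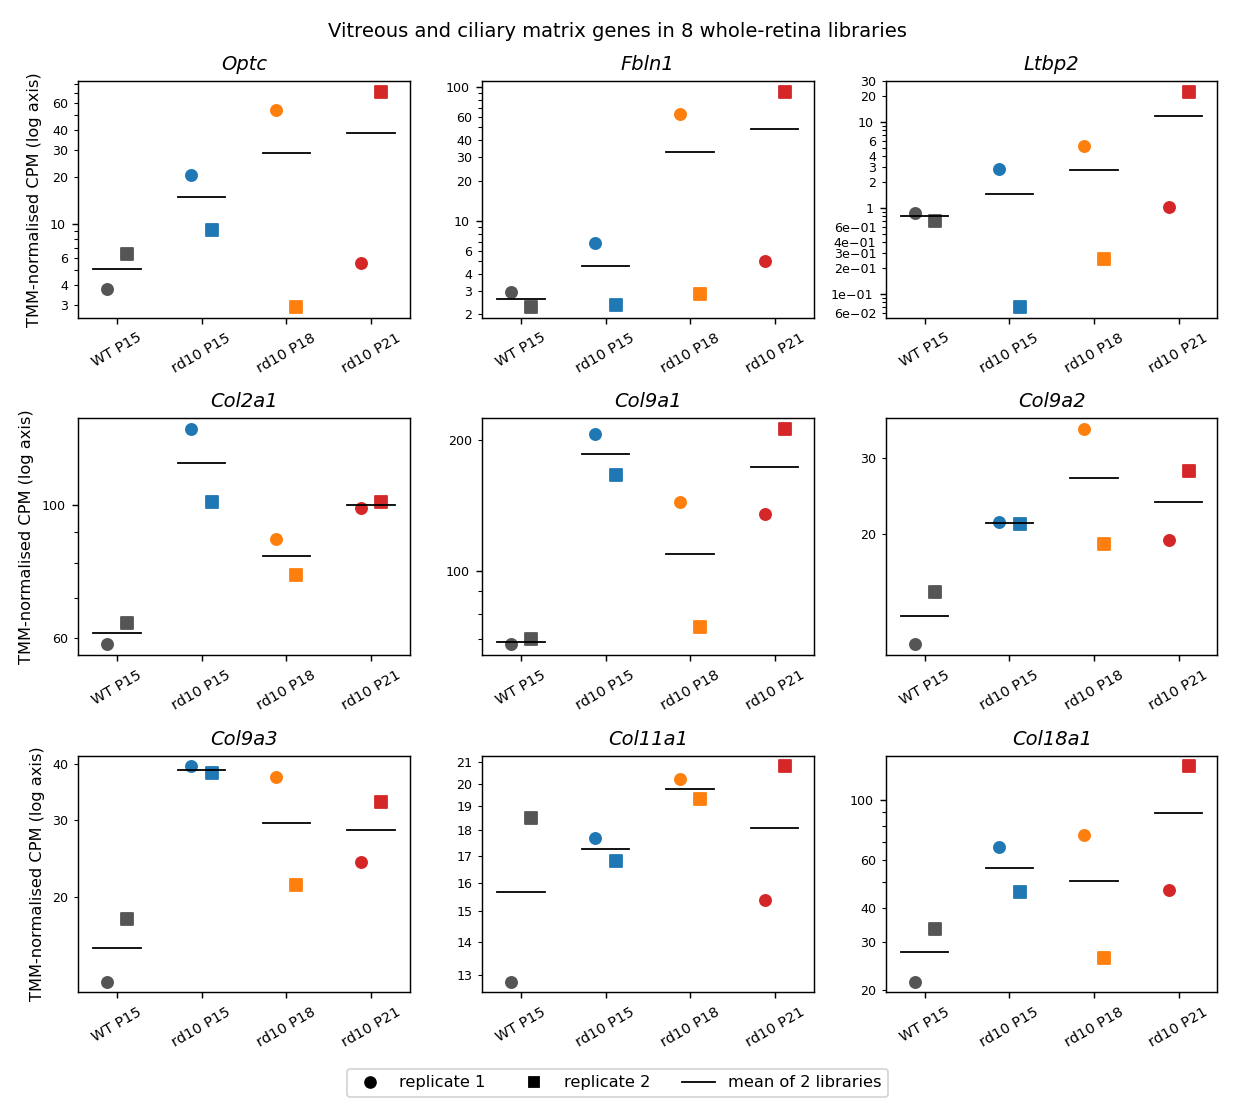
TMM-normalised CPM (log axis, scaled for each gene) of the 9 genes in the 8 libraries, with circles for replicate 1, squares for replicate 2 and a line at the mean of each group. Optc, Fbln1 and Ltbp2 reach their highest values, 71.1, 92.0 and 22.5 CPM, in rd10 P21 replicate 2, and Col2a1, Col9a1, Col9a2, Col9a3, Col11a1 and Col18a1 are lowest in WT P15 replicate 1.

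The gap between the libraries of a group, given as the higher level over the lower with an exact binomial 95% interval for counting error, was wider for each jump gene than for any of the other 6 in rd10 P15, P18 and P21, as they had been chosen for, but not in WT P15. In rd10 P18, Optc differed 18.8-fold (15.2 to 23.4), Fbln1 22.2-fold (18 to 27.7) and Ltbp2 20.9-fold (10.4 to 49.3), each higher in replicate 1. In rd10 P21 the same genes differed 12.8-fold (11 to 14.9), 18.3-fold (15.7 to 21.5) and 21.9-fold (15.6 to 31.5), each higher in replicate 2. In rd10 P15 the gaps were 2.27-fold for Optc, 2.90-fold for Fbln1 and 40.2-fold (10.8 to 337) for Ltbp2, where the lower library had 2 counts. In WT P15 the gaps were 1.68-fold for Optc, 1.29-fold for Fbln1 and 1.25-fold for Ltbp2, and for Fbln1 and Ltbp2 the interval included 1. Among the 20457 genes that passed the filter on low counts, 17.1% differed by over 2-fold between the WT libraries, and 16.9%, 21.4% and 17.3% did so between the rd10 libraries of P15, P18 and P21. Of the 9 genes, 0 did so in WT, and 3, 4 and 4 at the 3 rd10 ages, and since the jump genes were selected on this measure their part of these counts is a description.

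In direction, the other 6 genes followed the jump genes. Their gaps were much smaller in the rd10 groups, some lay within counting error, and the direction of Col2a1 in rd10 P21 rested on the scaling. With TMM, 6 of 6 were higher in the library where the mean of Optc, Fbln1 and Ltbp2 was higher, in each of the 4 groups, a pattern held by 5.16% of the genes tested. Over the 3 rd10 groups alone 6 of 6 did so, against 9.89% of the genes tested. With scaling by library size only it was 5 of 6 in both cases, since Col2a1 had a log2 ratio of 0 and was not on the side of the jump genes in rd10 P21. The direction in WT P15 carries little weight, since Fbln1 and Ltbp2 themselves lay on the other side there and the mean log2 ratio of the jump genes was -0.02, against 2.58, 4.33 and -4.10 in rd10 P15, P18 and P21 (replicate 1 over replicate 2). The counting interval lay above 1 for 5 of the 6 genes in WT, and for 3, 5 and 5 of them at P15, P18 and P21 of rd10. Only for Col9a1 and Col18a1 did it lie above 1 in all 3 rd10 groups. The 6 genes share their libraries and, for the type II, IX and XI collagens, their place in the same fibril, so that they are not independent of each other.

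Col18a1 was the only gene of the 6 with a gap of over 2-fold, apart from Col9a1 in rd10 P18 with scaling by library size only (2.02-fold). It was 2.84-fold higher (2.62 to 3.07) in rd10 P18 replicate 1 and 2.87-fold higher (2.71 to 3.04) in rd10 P21 replicate 2 than in the other library of the group. The 3 chains of type IX collagen moved by less. In rd10 P18, Col9a1 was 1.93-fold, Col9a2 1.85-fold and Col9a3 1.76-fold higher in replicate 1, and in rd10 P21 they were 1.57-fold, 1.44-fold and 1.36-fold higher in replicate 2. Col2a1, the main chain of the fibril, differed 1.15-fold (1.09 to 1.22) in rd10 P18 and 1.02-fold (0.969 to 1.07) in rd10 P21. Col11a1 differed 1.05-fold (0.936 to 1.17) in rd10 P18 and 1.35-fold (1.20 to 1.52) in rd10 P21. By point estimate, the jump genes had the widest gaps at these 2 ages, then Col18a1, then the type IX chains. Col2a1 and Col11a1 came last, and their places changed between the 2 ages. In rd10 P21 the interval of Col11a1 overlapped those of Col9a2 (1.30 to 1.60) and Col9a3 (1.24 to 1.50). The order differed in rd10 P15, with Col18a1 at 1.47-fold, Col2a1 at 1.32-fold and Col9a1 at 1.25-fold. Col11a1, Col9a3 and Col9a2 were at 1.05-fold, 1.04-fold and 1.02-fold there.

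**Figure D2:**
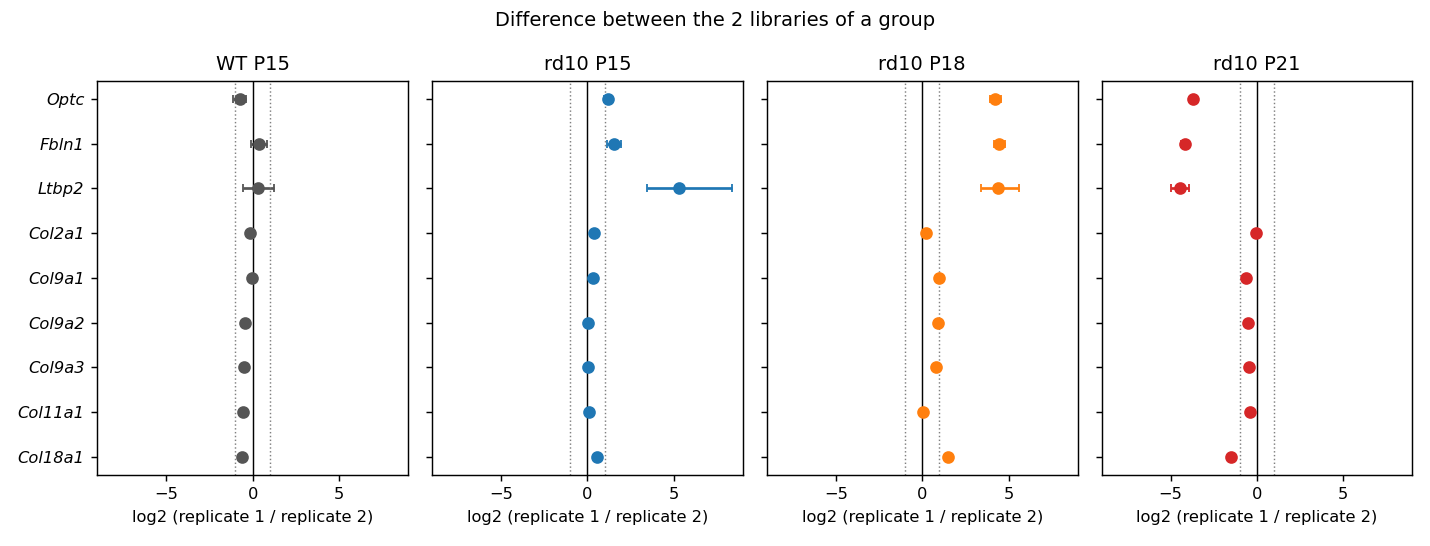
Log2 ratio of replicate 1 to replicate 2 for the 9 genes in each group, with exact binomial 95% intervals for counting error and dotted lines at a 2-fold difference. Points right of 0 are higher in replicate 1, and in rd10 P18 and rd10 P21 the jump genes lie 12.8-fold to 22.2-fold from equality on opposite sides, with Col18a1 next at 2.84-fold and 2.87-fold.

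A small fold can hide a large amount of RNA where the base level is high. Per kilobase of exon (lengths from GENCODE M21, between 2575 bases for Optc and 12744 for Col11a1), Col9a1 was the most abundant of the genes in WT P15, at 13.6 ± 0.277 CPM per kb (SD, n = 2 libraries, here and below). Col2a1 followed at 6.60 ± 0.384, and Col9a2 at 4.15 ± 0.826, Col9a3 at 4.01 ± 0.918 and Col18a1 at 3.92 ± 1.21 did not differ beyond their spread. Optc had 1.98 ± 0.715, Col11a1 1.23 ± 0.318, Fbln1 0.594 ± 0.106 and Ltbp2 0.0977 ± 0.0151 CPM per kb. In the 2 high libraries this order shifted. Optc had 21.2 CPM per kb in rd10 P18 replicate 1 and 27.6 in rd10 P21 replicate 2, next to 28.4 and 41.8 for Col9a1, while Fbln1 had 14.4 and 21.1.

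Taken as a difference between the libraries of a group, Optc had 20.0 CPM per kb more in the higher library of rd10 P18, Fbln1 13.8, Col9a1 13.6, Col18a1 6.87, Col9a2 5.22, Col9a3 4.2 and Col2a1 1.26. In rd10 P21 the differences were 25.5 for Optc, 19.9 for Fbln1, 15.2 for Col9a1, 12.4 for Col18a1, 2.79 for Col9a2, 2.27 for Col9a3 and 0.199 for Col2a1. Ltbp2 and Col11a1 differed by 0.614 and 0.0693 CPM per kb in rd10 P18 and by 2.62 and 0.420 in rd10 P21. On this scale Col9a1, with gaps of under 2-fold, lay close to Fbln1, with gaps of 22.2-fold and 18.3-fold. Optc, Fbln1 and Ltbp2 together made up 23.5% and 26.0% of the summed CPM of the 9 genes in the 2 high libraries, and between 2.47% and 5.88% in the other 6.

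The jump genes did not keep a fixed ratio to each other. There were 1.16 and 1.29 CPM of Fbln1 for each CPM of Optc in the 2 high libraries. That ratio was 0.978 and 0.903 in the other libraries of the same groups, 0.331 and 0.260 in rd10 P15, and 0.767 and 0.354 in WT P15. Ltbp2 stood at 0.0969 CPM per CPM of Optc in rd10 P18 replicate 1 and at 0.316 in rd10 P21 replicate 2.

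Markers of the ciliary epithelium and ciliary margin moved in part with the jump genes. Of 12 such genes, 6 (Otx1, Msx1, Zic1, Bmp4, Bmp7 and Gas1) had the same higher library as the jump genes in the 3 rd10 groups, against 9.89% of the genes tested. Being over 2-fold higher in rd10 P18 replicate 1 and in rd10 P21 replicate 2, each against its partner, held for 2.04% of the genes tested, for 4 of the 9 matrix genes (the 3 jump genes and Col18a1) and for 4 of the 12 markers (Otx1, Msx1, Bmp4 and Wfdc1). Wfdc1, a secreted protease inhibitor of the WAP family, had 14.4 and 5.26 CPM at P18 of rd10 and 7.19 and 14.9 at P21. Bmp4, a growth factor of the ciliary margin, had 3.37 and 1.29 CPM at P18 of rd10 and 1.74 and 4.40 at P21. The transcription factors Otx1 and Msx1 did not exceed 2.18 and 1.37 CPM in any library. The list as a whole, of which the water channel Aqp1 was the most abundant gene, summed to 263 and 265 CPM in the WT libraries, 251 and 245 in those of rd10 mice at P15, 261 and 226 at P18 and 224 and 288 at P21. Against WT P15, 0 of the 12 were called at any age. The part of ciliary tissue in the gaps was not tested.

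Lists of other cell types were searched for the same pattern, which 9.89% of the genes tested held over the 3 rd10 groups. With 4 to 10 tested genes to a list, counts of 0 or 1 lie near that share. Of the lens list, 0 of the 4 tested genes followed the jump genes in the 3 rd10 groups. All 10 lens genes summed to 0.443 and 2.01 CPM in the WT libraries, 3.25 and 3.03 in those of rd10 mice at P15, 6.71 and 3.72 at P18 and 3.08 and 1.47 at P21, and Mip was at 0 in all libraries. The highest sum was thus in 1 of the high libraries, rd10 P18 replicate 1, where Cryaa had 79 counts against 4 in its partner and Cryba1 35 against 0, while in the other, rd10 P21 replicate 2, they had 5 and 3. These crystallins were named after their values were seen, and the part of lens RNA in the gaps was not tested. Of the stromal fibroblast list, 0 of the 5 tested genes followed, and Twist1 and Dpt were at 0. Of the 10 pigmented epithelium genes, 0 followed the jump genes in the 3 rd10 groups, and their sum was 42.9 and 29.5 CPM at P18 of rd10 and 50 and 46.3 at P21. Mlana of that list was over 2-fold higher in both high libraries, but on few counts, 11 against 0 at P18 and 16 against 0 at P21. Of the 10 endothelial and mural genes 0 followed, although Acta2 was over 2-fold higher in both high libraries, with 2.39 and 0.882 CPM at P18 of rd10 and 0.628 and 1.85 at P21. Of the Muller glia, reactive Muller glia and rod lists, 1 of 10 each followed (Vim, Bcl3 and Nrl). The Y-linked genes had 6011 counts in the high library of rd10 P18 and 19 in its partner. In rd10 P21 they had 3 counts in the high library and 7193 in its partner. The part of sex in the gaps was not tested.

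Crhbp, which encodes the binding protein of corticotropin-releasing hormone, was the gene most like the jump genes. Likeness was Pearson's r between a gene's log2 CPM and the mean log2 CPM of Optc, Fbln1 and Ltbp2 over the 8 libraries, for 14939 other genes with a mean count of at least 50, and is given as a description because genes were picked by it. Crhbp reached r = 0.993 (Spearman's rho 0.905), and r = 0.952 over the 6 libraries left without the 2 high ones. It had 6.76 and 8.16 CPM in the WT libraries, 13.5 and 6.87 in those of rd10 mice at P15, 24.4 and 6.99 at P18 and 8.91 and 32.7 at P21. Of the next 9, those named here were Atp10d, Bckdhb, B3galt1, Zfp87, Pkp4, Clec18a, Slc13a4 and Ggn, with r between 0.920 and 0.968. Slc13a4, a sulfate transporter, had 9.22 and 2.58 CPM at P18 of rd10 and 1.97 and 9.26 at P21. Without the 2 high libraries r was 0.450 for Slc13a4, so that its likeness rests in part on those libraries.

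Within the set, Col18a1 was closest to the jump genes (r = 0.883, rho 0.881, and 0.668 without the 2 high libraries), a value that 17 other genes exceeded. Col9a2 had r = 0.732, Col9a1 0.631, Col11a1 0.549, Col9a3 0.507 and Col2a1 0.392. Without the 2 high libraries these were 0.209, 0.554, -0.0458, 0.343 and 0.584, in the same order. All libraries share the scaling by which the values were set, and the jump genes rest on low counts in several of them.

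**Figure D3:**
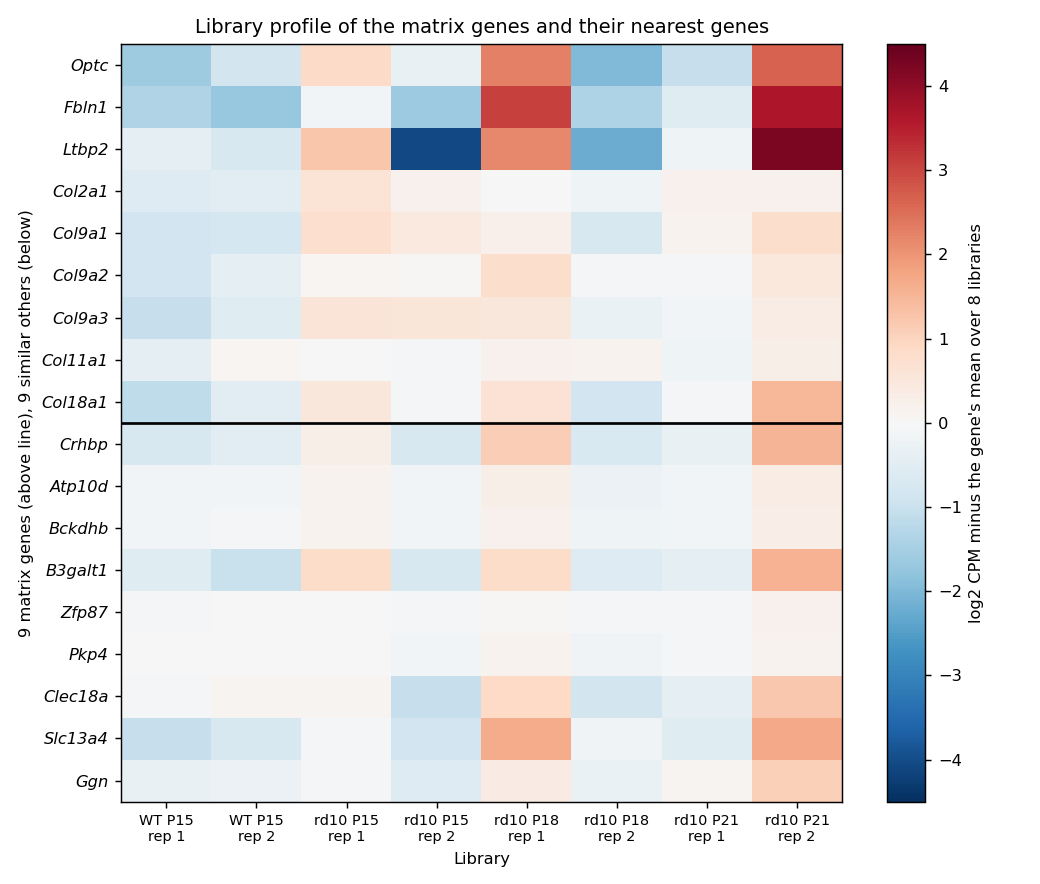
Log2 CPM of each gene minus its mean over the 8 libraries (color scale), with the 9 matrix genes above the line and 9 of the 10 most similar other genes below it. The darkest red fields lie in rd10 P18 replicate 1 and rd10 P21 replicate 2, and Crhbp (r = 0.993) repeats the profile of the jump genes at a smaller amplitude.

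Against WT P15, all 9 genes had a positive log2 fold change at each of the 3 ages, but edgeR's quasi-likelihood test called 0 of them (adjusted p by Benjamini-Hochberg under 0.05, with the log2 fold change beyond 1 either way). In a whole retina, more RNA per cell and more cells of a type cannot be told apart. Of all tested genes, 0.23%, 1.48% and 0.386% were called at P15, P18 and P21. The median log2 fold change of the 9 genes was 0.95, 0.93 and 1.33 at P15, P18 and P21, against -0.01, 0.01 and 0 over all genes. For the 6 genes not selected on their jumps it was 0.99, 0.77 and 0.88. The log2 fold change was over 1 for 4, 4 and 5 of the 9, against 8.12%, 11.2% and 10.2% of all genes. Unadjusted p was under 0.05 for 4, 3 and 5 genes, against 12.3%, 17.4% and 11.8% of all genes. Both rd10 libraries lay above both WT libraries for 6, 5 and 7 of the 9, against 24.8%, 24.1% and 24.9% of all genes. These comparisons share the WT P15 libraries, and the smallest two-sided p that an exact permutation of 2 and 2 libraries allows is 0.333.

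Among the 9 genes, Col2a1, Col9a1 and Col9a3 had the lowest adjusted p at P15. Col9a1 (ENSMUSG00000026147) had 68.0 and 70.0 CPM in the WT libraries, 206 and 166 in those of rd10 mice at P15, 144 and 74.6 at P18 and 135 and 212 at P21. All 6 rd10 libraries lay above both WT libraries, although rd10 P18 replicate 2 did so only narrowly. Against WT its log2 fold changes were 1.43, 0.66 and 1.33 at the 3 ages, each with a standard error of 0.33 (edgeR adjusted p = 0.135, 0.353 and 0.160). Col2a1 (ENSMUSG00000022483) had 58.5 and 63.5 CPM in the WT libraries, 134 and 101 in those of rd10 mice at P15, 87.9 and 76.3 at P18 and 99.0 and 101 at P21. Again all rd10 libraries were higher than WT. Its log2 fold change at P15 was 0.95 (standard error 0.16), with the smallest adjusted p of the set (0.0609), and 0.71 (adjusted p = 0.119) at P21.

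Col9a3 (ENSMUSG00000027570) had 12.9 and 17.9 CPM in the WT libraries, 39.6 and 38.2 in those of rd10 mice at P15, 37.5 and 21.3 at P18 and 24.1 and 32.8 at P21. Against WT the log2 fold change came to 1.33 at P15 (standard error 0.30, adjusted p = 0.113) and to 0.93 at P18 (0.30, adjusted p = 0.162). Col9a2 (ENSMUSG00000028626) had 11.1 and 14.7 CPM in the WT libraries, 21.4 and 21.1 in those of rd10 mice at P15, 35.1 and 19.0 at P18 and 19.4 and 28.1 at P21, with its largest log2 fold change, 1.07 (0.32, adjusted p = 0.135), at P18. For both chains the groups did not overlap with WT at any age. Without rd10 P18 replicate 2, the log2 fold changes at P18 were 1.45 for Col9a2 and 1.28 for Col9a3. Without rd10 P18 replicate 1, the higher library, they were 0.56 and 0.46. Col11a1 (ENSMUSG00000027966) was nearly level, with 12.8 and 18.5 CPM in WT P15 and between 15.4 and 20.8 in the rd10 libraries. Its log2 fold changes of 0.14, 0.33 and 0.21 were each within 1.5 standard errors of 0.

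Col18a1 (ENSMUSG00000001435) had 21.5 and 33.5 CPM in the WT libraries, 67.2 and 45.7 in those of rd10 mice at P15, 74.5 and 26.2 at P18 and 46.5 and 133 at P21. Its largest log2 fold change, at P21, came to 1.71 (standard error 0.69, adjusted p = 0.419). For the jump genes the standard errors were between 1.64 and 2.15. Log2 fold changes as large as 4.23 for Fbln1 (adjusted p = 0.492), 3.87 for Ltbp2 (adjusted p = 0.570) and 2.90 for Optc (adjusted p = 0.599) at P21 were thus not called. Both rd10 P21 libraries lay above both WT libraries for Fbln1 and Ltbp2, as for 24.9% of all genes, but not for Optc. At P15, Optc had a log2 fold change of 1.54 (adjusted p = 0.789), Fbln1 0.83 (adjusted p = 0.914) and Ltbp2 0.87 (adjusted p = 0.921), and the sign of the last 2 turned without rd10 P15 replicate 1 (-0.13 and -3.43).

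**Figure D4:**
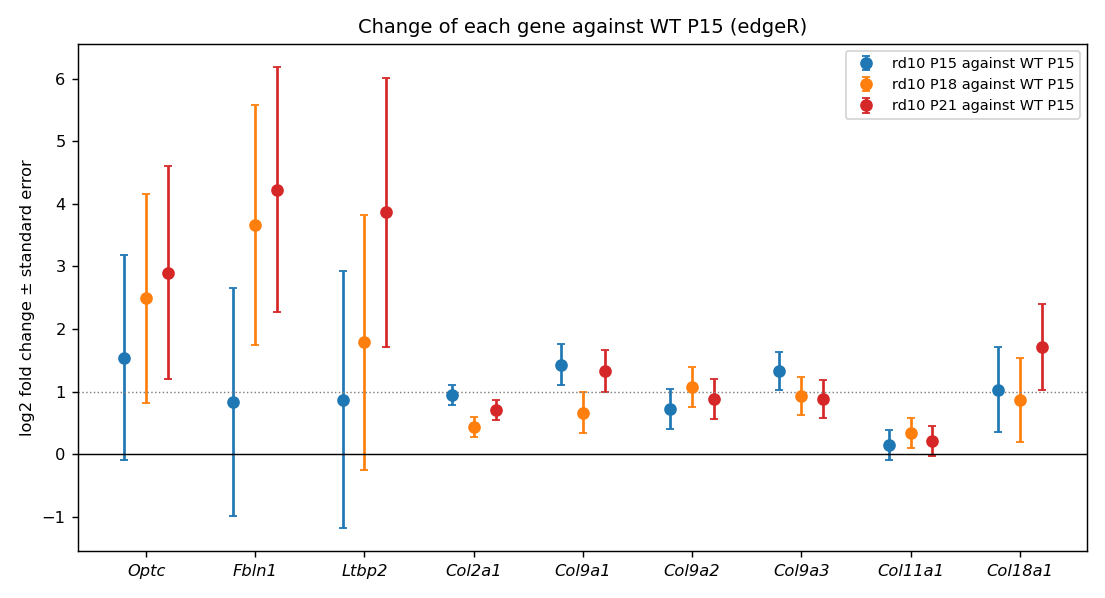
Log2 fold change of the 9 genes in rd10 P15, P18 and P21 against WT P15 from edgeR, with bars for the standard error and a dotted line at 1. The bars of Optc, Fbln1 and Ltbp2 (standard errors of 1.64 to 2.15) are several times longer than those of Col2a1 (0.16) and Col9a1 (0.33).

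DESeq2, the tool of the study's methods, called Col9a1 (adjusted p = 0.000605) and Col9a3 (adjusted p = 0.00275) in rd10 P15. It called Col9a2 (adjusted p = 0.0292) in rd10 P18 and Col9a1 (adjusted p = 0.00164) in rd10 P21. These were 2, 1 and 1 of the 9 genes, against 2.13%, 4.74% and 2.76% of the genes it tested. Col2a1 had the smallest DESeq2 adjusted p of the 9 at P15 (0.000435), and 0.0179 at P21. It was not called, since its log2 fold changes of 0.95 and 0.71 did not pass the fold threshold. Without the 2 high libraries edgeR called 2 of the 9 in rd10 P15, Col9a1 (adjusted p = 0.00356) and Col9a3 (adjusted p = 0.0188), and 0 in rd10 P18 and rd10 P21. In that fit the log2 fold changes at P18 were -0.82 for Optc, 0.13 for Fbln1, -1.65 for Ltbp2, 0.11 for Col9a1 and -0.07 for Col18a1, and at P21 they were 0.12, 0.95, 0.36, 0.96 and 0.75. Pigmented epithelium genes summed to 37.8 and 127 CPM in WT retinas and 218 and 255 in rd10 retinas at P15, with none of the 10 at 0 in all libraries. Ttr, the most abundant, had 16.2 and 65.4 CPM in WT and 99.4 and 124 in rd10 P15. Mitf had 7.91 and 4.31 in WT and 3.72 and 4.37 in rd10 P15, and Best1 1.11 and 0.259 against 0.159 and 0.494. Of the 10, 0 were called at P15. The 10 endothelial and mural genes summed to 339 and 406 CPM in WT retinas and 559 and 528 in rd10 retinas at P15, and Cldn5 and Rgs5 were called. Of all tested genes, 0.23% were called there. The part of either list in the P15 result was not tested. The Y-linked genes were expressed in both rd10 libraries of that day and in neither WT library, so that sex and genotype cannot be told apart there.

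Among the rd10 groups, where WT libraries play no part, edgeR called 0 of the 9 genes between P18 and P15, against 0.591% of all genes, and 0 between P21 and P15, against 0.401%. DESeq2 called 0 of the 9 in both, against 3% and 2.62% of all genes. Unadjusted p was under 0.05 for 2 of the 9 between P18 and P15, against 12.9%, and for 0 between P21 and P15, against 12.8%. Both P18 libraries lay below both P15 libraries for Col2a1, Col9a1 and Col9a3, 3 of the 9 against 20.4% of all genes, and both P21 libraries did so for Col2a1 and Col9a3, 2 of the 9 against 25.5%. The log2 fold change between P18 and P15 was -0.52 for Col2a1 (standard error 0.16, adjusted p = 0.240) and -0.77 for Col9a1 (0.33, adjusted p = 0.383). Without the 2 high libraries, Col9a1 was called between P18 and P15, at -1.32 (adjusted p = 0.00903). Col2a1 and Col9a3 were thus highest in the rd10 P15 libraries, but only narrowly. For Col2a1, rd10 P15 replicate 2 and rd10 P21 replicate 2 both rounded to 101 CPM. Col9a3 had 38.2 CPM in rd10 P15 replicate 2 and 37.5 in rd10 P18 replicate 1. For Col9a1 only rd10 P21 replicate 2, at 212 CPM, exceeded both rd10 P15 libraries. Of the zonule and microfibril list, Efemp1, a fibulin family member, rose from P15 to P18 (1.20, adjusted p = 0.0430) and to P21 (1.44, adjusted p = 0.0256). Of the other matrix lists, Cd44 was called from P15 to P18 (2.15) and to P21 (1.8). Pcolce (3.23), Bmp1 (1.07) and Col4a4 (-2.54) were called from P15 to P18 only.

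Some of the other matrix genes were called, and mostly at P18, where the most genes were called in all. The shares of all tested genes called against WT P15 were 0.23%, 1.48% and 0.386% at P15, P18 and P21. Of 22 genes of the zonule and its microfibrils, 3 rose in rd10 P18 against WT P15, Loxl1 (log2 fold change 1.43, adjusted p = 0.0432), a cross-linker of elastic fibers, Ltbp1 (1.36, adjusted p = 0.0460), a relative of Ltbp2 that binds latent TGF-beta, and Eln (1.34, adjusted p = 0.0288), elastin itself. Of this list 0 were called at P15 or P21, and its median log2 fold change was 0.85, 0.85 and 0.89 at the 3 ages. Of the 22, 5 (Fbn2, Mfap2, Mfap4, Ltbp1 and Adamts10) had the same higher library as the jump genes in the 3 rd10 groups, against 9.89% of the genes tested. Mfap4, a microfibril protein, was over 2-fold higher in both high libraries, with 4.74 and 0.693 CPM at P18 of rd10 and 0.914 and 9.96 at P21. Fbn1, the fibrillin of the zonule, had 15.6 and 19.2 CPM at P18 of rd10 and 29.4 and 75.5 at P21 (both named after their values were seen), so that it was high in 1 of the 2 high libraries only. Of the 6 tested small leucine-rich proteoglycans, the family of Optc, Bgn rose at P15 (2.45, adjusted p = 0.0485) and at P18 (2.16, adjusted p = 0.0303), and 0 were called at P21. Ogn and Aspn of that family were over 2-fold higher in both high libraries than in their partners. Ogn had 4.06 and 0.189 CPM at P18 of rd10 and 0.971 and 5.45 at P21. Epyc, Lum and Kera had no count in any library.

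Of 10 other collagens of fibrils, Col5a3 rose at P15 (1.89, adjusted p = 0.0150) and P18 (1.70, adjusted p = 0.0101), and 0 were called at P21. Of 10 tested genes of vitreous proteoglycans and hyaluronan, Cd44, the hyaluronan receptor, rose at P18 (2.39, adjusted p = 0.0125) and P21 (2.04, adjusted p = 0.0376), and 0 were called at P15. Of 18 basement membrane genes, the group of Col18a1, Col4a2 rose at P15 (1.37, adjusted p = 0.0248) and P18 (1.05, adjusted p = 0.0285), Col4a6 at P18 (2.68, adjusted p = 0.0227) and P21 (3.63, adjusted p = 0.0268) and Col4a5 at P21 (1.35, adjusted p = 0.0376), while Col4a4 fell by 2.27 at P18 (adjusted p = 0.0172). Of 15 tested enzymes and helpers of collagen synthesis, 3 rose at P18, Bmp1 (1.78, adjusted p = 0.00434), a procollagen C-proteinase, its enhancer Pcolce (3.29, adjusted p = 0.0288) and the collagen chaperone Serpinh1 (1.82, adjusted p = 0.0300), and 0 were called at P15 or P21. The median log2 fold changes at P15, P18 and P21 were 1.05, 1.12 and 1.60 for the leucine-rich proteoglycans, 0.96, 1.21 and 0.44 for the fibril collagens, 0.37, 0.14 and 0.52 for the vitreous proteoglycan list, 0.79, 0.59 and 0.67 for the basement membrane list and -0.03, 0.57 and 0.42 for collagen synthesis. In rd10 P18 these calls stand beside those of the reactive Muller glia list, of which 9 of 10 rose. The same higher library as the jump genes in the 3 rd10 groups was seen for 3 of the 6 leucine-rich proteoglycans, 2 of the 10 fibril collagens, 2 of the 10 vitreous proteoglycan genes, 2 of the 18 basement membrane genes and 0 of the 15 collagen synthesis genes. It was seen for 9.89% of all genes tested. Matn2 of the vitreous proteoglycan list was over 2-fold higher in both high libraries. The collagen synthesis sum was 430 and 453 CPM at P18 of rd10 and 390 and 385 at P21.

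Overlapping genes bear on some of these values, since no source used here says that the strand was marked or used in counting. Genes on the opposite strand overlap Optc, Ltbp2, Col9a3 and Col18a1 in GENCODE M21. D030025P21Rik shares 764 bases of exon with Ltbp2 and had 15 counts in rd10 P15 replicate 1 and 0 in the other libraries. Tcfl5 shares 234 with Col9a3 and had at most 25 counts. Gm15851, which had at most 38 counts, shares 0 bases of exon with Optc, and Slc19a1 and Gm7775 share 0 with Col18a1.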

How the data were processed

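Per the labels and the study's methods, TRIzol RNA of single whole retinas was made into poly(A) libraries and sequenced on an Illumina NovaSeq. HISAT2 is named in the submitters' processing notes. The sources used here do not give its version, the genome build, the annotation or the counting tool. The authors deposited raw read counts per Ensembl gene for the 8 libraries, without normalization, and 52029 of 57010 identifiers were given a symbol from GENCODE M21 (GRCm38).

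Genes were filtered by edgeR's filterByExpr (minimum count 10, minimum total 15), which left 20457, all 9 members included, and scaled by TMM. edgeR 4.0.16 (limma 3.58.1, R 4.3.3) fitted quasi-likelihood models with robust estimates to all 4 groups (4 residual degrees of freedom). A call needed a log2 fold change beyond 1 either way and p under 0.05 after Benjamini-Hochberg adjustment. DESeq2 1.42.0, which the study used, was an alternative, as were other scalings, filters, samples and a replicate block. The edgeR fit was tested on simulated data in which changes were set in both libraries of a group. That test does not cover genes that jump between replicates. The replicate folds printed with TMM scaling were taken from the counts with nothing added. The log2 replicate ratios given in the text, and the folds with other scalings, had 0.5 added to each count. For Ltbp2 in rd10 P15 the TMM-scaled fold was 40.2 without this addition and 32.3 with it. The exact binomial (Clopper-Pearson) 95% intervals of the folds cover counting error only. Depths of 28076947 to 33724562 counts set that precision. Log2 CPM for likeness used a prior count of 2.

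The members and the gene lists were chosen with earlier results of these data known. Named were all members, up to 3 called genes per list and comparison with the largest change, and the 10 genes most like the jump genes, of which 1 is not reported here. Of the lists used, those of cell types mark tissues next to the retina, Muller glia, rods and vessels.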

Additional observations from a re-analysis of the deposited data

How the results depend on the processing

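The count of vitreous and ciliary matrix genes called stayed at 0 in each of the 5 comparisons with RLE size factors, with library size only, without the filter on low counts, and, in edgeR, without the fold threshold. It rose to 2 (Col9a1 and Col9a3) in rd10 P15 against WT P15 with DESeq2, with the 4 libraries compared alone, and with both high libraries left out, an alternative chosen after seeing the data. DESeq2 called 1 in rd10 P18 and 1 in rd10 P21 against WT P15, and leaving out both high libraries called 1 between rd10 P18 and P15. Leaving out 1 library at a time gave 0 to 2 in rd10 P15 against WT P15 (2 without rd10 P18 replicate 1 or 2), 0 to 2 in rd10 P18 (2, Col9a2 and Col9a3, without rd10 P18 replicate 2), and 0 in the other 3 comparisons. A group left with 1 library was assumed to vary like the others. The cause of these changes was not tested.

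Against WT P15, log2 fold changes turned sign when 1 library was left out for Fbln1 at P15 (range -0.13 to 1.40), Ltbp2 at P15 (-3.43 to 1.82), Col11a1 at P15 (-0.10 to 0.43), Optc at P18 (-0.82 to 3.41), Ltbp2 at P18 (-1.65 to 2.72), Col18a1 at P18 (-0.07 to 1.43) and Col11a1 at P21 (-0.02 to 0.50, and -0.01 without rd10 P21 replicate 2). With both high libraries left out they were -0.82 for Optc, -1.65 for Ltbp2 and -0.07 for Col18a1 at P18, and -0.02 for Col11a1 at P21. Fbln1 lay between 0.13 and 4.6 at P18 and, at P21, between 0.96 and 5.15, Optc between 0.13 and 3.80 and Ltbp2 between 0.37 and 4.81, with the lowest value without the high library of that age.

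The counts of genes over 2-fold apart were the same with RLE size factors, and with library size only they differed in rd10 P18 (5 in place of 4, adding Col9a1). The count of the 6 genes that followed was 6 with RLE size factors and with Optc as the only reference, and 5 with library size only, without Col2a1. Replicate ratios cannot be had with a library left out. The replicate block called 0 of the 9 genes in each comparison. Replicate differences of the groups correlated between -0.0209 and 0.0408 over genes. Replicate numbers thus showed no shared difference over all genes, and one limited to some genes could not be seen this way. Depth limits Ltbp2, which had 2 and 8 counts in 2 libraries.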
